A study of Mus musculus with 4 samples.

Results

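The genes described here are 35 genes of DNA replication and the G1/S transition, from the subunits of the replicative helicase to cyclin E and the E2F factors. They were chosen by name: each was read from a probe set that the platform annotation ties to 1 symbol, and where a gene had several such probe sets the one with the highest mean was used. All 35 were found among 19938 genes on the array, and all 35 lay above the floor of 4.25 (log2) on every array. That floor is the 95th percentile over 1210 probe sets of olfactory and vomeronasal receptors, whose genes are not expected to be active in these cells.

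RNA came from RAW264.7 cells, a mouse macrophage-like line that forms bone-resorbing osteoclasts under RANKL, the ligand that drives osteoclast formation, and M-CSF, which keeps macrophages growing. The 4 groups were cells with a control vector left unstimulated, cells with the control vector after 72 h of RANKL and M-CSF, cells with a vector expressing miR-155 left unstimulated, and cells with the miR-155 vector after the same 72 h of cytokines. All 4 are transfected RAW264.7 cells, and the sources used here do not say whether the vector cells were pools or single clones. The cytokine dose was 20 ng/ml, without a word on whether that holds for each. The control cells are called wild-type in the series text but carry a control vector in the sample descriptions. Each group has 1 array, so the differences below have neither replicate errors nor tests, and their precision is limited by that number. The microRNA is shown because it is what separates the vectors, with its seed, bases 2 to 8, in capitals; the labels do not say which arm was measured or intended, and the 5p arm is printed from RefSeq (GRCm38.p6).
mmu-miR-155-5p, chr16:84714143-84714165, plus strand: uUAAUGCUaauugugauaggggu

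The probe set of the Mir155 host locus lay below the floor on all 4 arrays, between 3.58 and 3.73 (log2), and does not read the mature microRNA, so it checks neither vector. Marker genes were read next: 11 of 12 macrophage markers were above the floor on the unstimulated control array, against 4 of 9 measured T and B cell markers and 6 of 8 measured fibroblast and osteoblast markers, with highest levels of 4.84 and 5.76 (log2) among the last 2 lists. All 14 osteoclast markers were at least 1.5-fold higher on the stimulated control array and 12 of 14 on the stimulated miR-155 array, by medians of 4.54 and 3.06 (log2). Of all genes above the floor, 12.4% and 3.43% were as much higher. The stimulated control array stood apart from the rest. Over 13545 genes above the floor its Pearson correlation with each of the others was 0.908 to 0.937, and that between the others was 0.982 to 0.989. No second array of that group exists here, so every difference that uses it has no value without it. The stimulation difference in miR-155 cells and the vector difference without stimulation do not use it, but both use the unstimulated miR-155 array.

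As background, a replication origin is marked in G1 when the origin recognition complex and the loaders Cdc6 and Cdt1 place the ring-shaped MCM helicase on DNA. At the G1/S transition cyclin E with its kinase, and E2F transcription factors released from the retinoblastoma protein, set off S phase: Cdc45 and the GINS complex join the helicase, primase and the polymerases start synthesis, and enzymes of nucleotide supply and histone handling are made at the same time. Many of these genes are known E2F targets. RAW264.7 cells divide in culture, whereas mature osteoclasts are multinucleated cells that no longer divide.

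The DNA just before the gene start is shown for 6 members because many replication genes are known E2F targets. E2F binding was not measured here, and its part in the differences was not tested. Promoter sequences of RefSeq (GRCm38.p6; 250 bases before to 50 after a gene start) were found for 29 of the 35 genes; Mcm4, Gins1, Gins2, Pole, Ccne2 and Tipin had no entry. The E2F site was searched as the letters TTTCCCGC, TTTGGCGC, TTTCGCGC and TTTGCCGC on both strands. It was found in 12 of the 29 members with an entry (41.4%), against 704 of 27025 genes in the table (2.60%), 11 of 37 other replication genes and 1 of 25 mitosis genes. The 12 are Mcm3, Mcm5, Mcm6, Mcm7, Orc1, Cdc6, Cdt1, Pola1, Rfc3, Lig1, E2f2 and Uhrf1. The cell cycle homology region, searched as TTTGAA and TTCGAA, was in 7 of the 29 members (24.1%), in 21.7% of all genes and in 19 of 25 mitosis genes. With the bases before the gene start alone, it was in 10 of the 25 mitosis genes, against 19.55% of all genes. The E2F letters were then in 8 of the 29 members and 7 of the 37 other replication genes, against 2.16% of all genes. CCAAT was in 19 of the 29 members (65.5%) and in 41.1% of all genes. A match is a stretch of letters and no shown binding site. Other forms of the site were not searched, so a member without these letters may still hold one. The median stimulation difference in control cells, described below, was -1.85 (log2) for the 12 members with E2F letters and -1.86 for the 17 without, and the medians of the vector difference with stimulation were 1.79 and 1.84. The 160 bases before the start are printed for 4 members with E2F letters and for Asf1b and Prim1, which had the largest differences in the control cells and hold no E2F letters in the window. Capitals mark the E2F letters in the first 4 sequences and CCAAT, in either orientation, in the last pair.
Mcm6, chr1:128359706-128359865, minus strand: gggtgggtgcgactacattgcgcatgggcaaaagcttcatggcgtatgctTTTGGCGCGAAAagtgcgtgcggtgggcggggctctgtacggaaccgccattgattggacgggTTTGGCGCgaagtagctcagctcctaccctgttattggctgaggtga
Mcm5, chr8:75109349-75109508, plus strand: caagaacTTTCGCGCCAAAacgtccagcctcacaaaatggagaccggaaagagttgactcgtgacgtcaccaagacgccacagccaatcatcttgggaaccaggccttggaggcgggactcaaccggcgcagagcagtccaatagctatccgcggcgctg
Cdc6, chr11:98907991-98908150, plus strand: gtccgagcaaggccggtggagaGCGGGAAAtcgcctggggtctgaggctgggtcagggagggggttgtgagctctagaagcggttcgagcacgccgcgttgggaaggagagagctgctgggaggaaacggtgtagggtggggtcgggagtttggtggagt
Orc1, chr4:108579294-108579453, plus strand: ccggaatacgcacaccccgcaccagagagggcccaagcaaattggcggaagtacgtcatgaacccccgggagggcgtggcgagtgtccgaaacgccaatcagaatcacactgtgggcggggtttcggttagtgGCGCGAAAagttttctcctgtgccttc
Asf1b, chr8:83955534-83955693, plus strand: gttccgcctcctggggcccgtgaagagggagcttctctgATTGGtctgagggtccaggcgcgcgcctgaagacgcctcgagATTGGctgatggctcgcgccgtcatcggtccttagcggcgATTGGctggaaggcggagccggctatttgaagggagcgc
Prim1, chr10:128015055-128015214, plus strand: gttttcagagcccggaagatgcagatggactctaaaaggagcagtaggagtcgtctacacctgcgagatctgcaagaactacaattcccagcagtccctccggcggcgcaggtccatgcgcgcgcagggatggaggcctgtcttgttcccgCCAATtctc

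In Mcm6 a forward and a reverse E2F match overlap by 4 bases, beginning 110 and 106 bases before the start, and another match begins 47 bases before it. Mcm5 holds the same run of letters read from the other strand, with overlapping matches that begin 153 and 149 bases before the start. The single matches of Cdc6 and Orc1 begin 138 and 27 bases before the start and read on the reverse strand. Asf1b also holds TTTGAA 14 bases before its start, in lower case above.

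Stimulation of control-vector cells came with lower levels of nearly the whole set. Between the unstimulated and the stimulated control array, 34 of the 35 genes were at least 1.5-fold lower and none was that much higher (Cdt1 was the exception), against 15.2% of the 13545 genes above the floor that were as much lower and 12.4% that were higher. At 2-fold the count was 32 of 35, against 6.93%. The median difference was -1.89 (log2), or 3.70-fold, where the median of all genes was -0.02. The 34 differences also exceeded the noise reference of 0.48, the difference that 95% of the receptor probe sets stay under between these 2 arrays; as a measure taken on dim probe sets, it does not replace a replicate error. Over all genes, 18.9% were as far below 0. In 34 of 35 genes the stimulated control array was the lowest of the 4, against 36.2% of all genes. Fewer cycling cells and less RNA per cell cannot be told apart in bulk RNA of this kind.

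**Figure D1:**
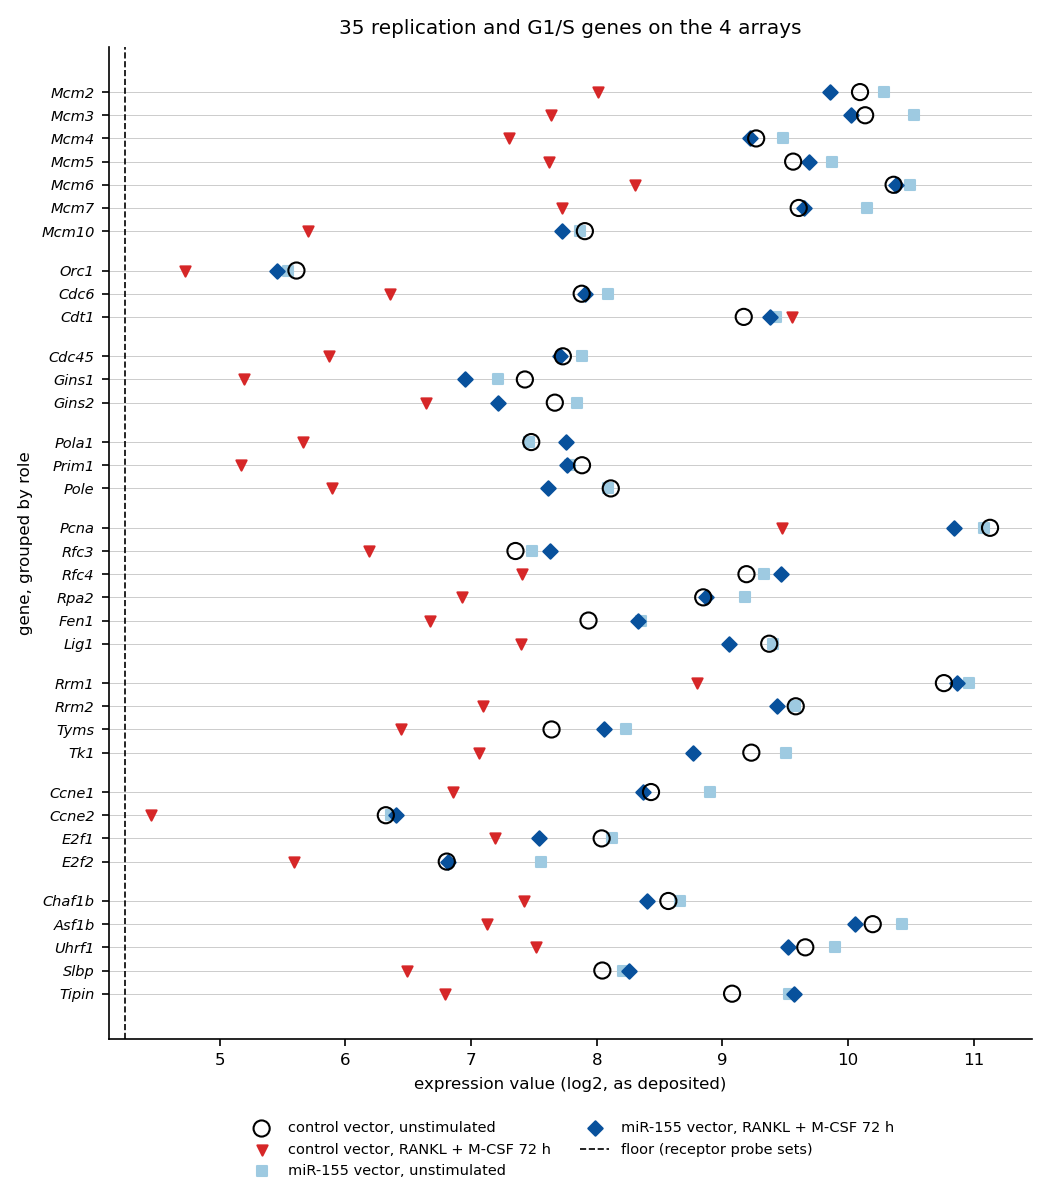
Expression values (log2, as deposited; x axis) of the 35 genes, grouped by role (y axis), with 1 symbol per array; the dashed line is the floor of 4.25. The red triangles of the stimulated control array stand to the left of the other 3 symbols for every gene but Cdt1.

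The helicase subunits lay close together. Mcm2 to Mcm7 form the ring that unwinds DNA at the fork, and their 6 differences lay between -2.50 and -1.89 (log2), with a median of -2.01. Mcm3, the lowest, read 10.14 on the unstimulated control array, 7.63 on the stimulated control array, 10.52 on the unstimulated miR-155 array and 10.02 on the stimulated miR-155 array. Mcm7, with the smallest difference of the ring, read 9.61, 7.72, 10.15 and 9.65 in the same order. In both genes 3 arrays lie close together and the stimulated control array lies at least 1.89 below the lowest of them. Mcm10, a scaffold that helps to activate the loaded ring, was 4.59-fold lower (-2.20).

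The loading factors were the least uniform group. Cdc6, the ATPase that recruits the ring with Cdt1, read 7.88, 6.36, 8.09 and 7.91 in the array order above and was 2.87-fold lower (-1.52). Orc1, the subunit of the origin recognition complex that varies through the cell cycle, was 1.84-fold lower (-0.88), from 5.61 to 4.73. Cdt1 was the exception of the whole set. Its 4 values were 9.17, 9.56, 9.43 and 9.38, so that the stimulated control array was the highest, by 0.39 (log2) over the unstimulated one and within the noise reference. Cdt1 has 1 probe set on this array, and no second one bears on its value.

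Among the activators of the helicase, Cdc45 was 3.64-fold lower (-1.86) and Gins1 4.71-fold lower (-2.23), both subunits of the active helicase at the fork. Gins2, of the same complex as Gins1, read 7.67, 6.64, 7.84 and 7.21 and was 2.03-fold lower (-1.02). At the start of synthesis, Prim1, the catalytic subunit of primase, read 7.88, 5.17, 7.79 and 7.77. It had the second largest difference of the set, 6.56-fold (-2.71), while its other 3 values lay within 0.12 of each other. Pola1, the catalytic subunit of polymerase alpha, was 3.53-fold lower (-1.82), and Pole, that of the leading-strand polymerase epsilon, 4.66-fold lower (-2.22).

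The clamp, clamp loader and lagging-strand genes were lower by 1.17 to 1.97 (log2). Pcna, the sliding clamp, read 11.13, 9.47, 11.08 and 10.84, a 3.15-fold difference with stimulation in control cells (-1.66). Its second probe set gave -1.70. The clamp loader subunits Rfc4 and Rfc3 were at -1.79 and -1.17. Rpa2, a subunit of the single-strand binding protein, was at -1.92. Lig1, which seals Okazaki fragments, was at -1.97, and Fen1, the flap nuclease that trims them, at -1.26.

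Nucleotide supply followed the same direction. Rrm2, the cell cycle-regulated small subunit of ribonucleotide reductase, read 9.58, 7.10, 9.58 and 9.44 and was 5.61-fold lower with stimulation in control cells (-2.49). Rrm1, the large subunit, was 3.90-fold lower (-1.96). Tk1, the cytosolic thymidine kinase, was 4.48-fold lower (-2.16), and -2.20 on its second probe set. Tyms, which makes thymidylate, read 7.64, 6.45, 8.23 and 8.06 and was 2.29-fold lower (-1.20).

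Of the regulators of S-phase entry, both E2F factors and both E cyclins were lower. E2f1, an activating E2F factor, read 8.04, 7.19, 8.12 and 7.54; its difference of -0.85 was the smallest among the 34 lower genes. E2f2, of the same class, read 6.81, 5.59, 7.55 and 6.82 (-1.22). Ccne1, cyclin E1, was at -1.57. Ccne2, cyclin E2, read 6.32, 4.45, 6.37 and 6.40 and was at -1.87; its stimulated control value lies just above the floor, where array values are compressed.

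Chromatin and fork-support genes held a wide range, from -3.07 to -1.15 (log2). Asf1b, a chaperone that hands histones H3 and H4 to new DNA, read 10.20, 7.13, 10.43 and 10.05. Its 8.39-fold difference (-3.07) was the largest of the 35. Chaf1b, a subunit of the chromatin assembly factor CAF-1, was at -1.15. Uhrf1, which brings maintenance methylation to new DNA, was at -2.14, and Slbp, which binds the stem-loop of histone mRNA, at -1.55 (-1.60 on its second probe set). Tipin, which protects forks together with Timeless, read 9.08, 6.79, 9.53 and 9.57 and was at -2.28.

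Subunits of 1 complex did not always move by the same amount, as the other subunits from a list of 44 further replication genes show. Of the 43 measured, 34 were at least 1.5-fold lower with stimulation in control cells, against 15.2% of all genes, and none was higher, against 12.4%. Their median was -1.15 (log2) and their range -2.48 to -0.09. The lowest were Cdca7, a chromatin factor, at -2.48, Dck, deoxycytidine kinase, at -2.44, Ticrr, which helps Cdc45 load, at -2.06, and Wdhd1, which ties polymerase alpha to the fork, at -2.04. In the origin recognition complex, Orc6 (-1.54) and Orc1 (-0.88) were past 1.5-fold, and Orc2 to Orc5 lay between -0.55 and -0.24. In polymerase epsilon, the catalytic Pole was at -2.22, Pole2 at -1.30, Pole3 at -0.64 and Pole4 at -0.09. In polymerase delta, Pold1 was at -1.60, Pold2 at -0.85 and Pold3 at -0.52. By contrast the 2 subunits of CAF-1 were both at -1.15, and Timeless was at -2.03 beside Tipin. Whether subunits differ beyond replicate error was not tested, since no replicates exist.

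**Figure D2:**
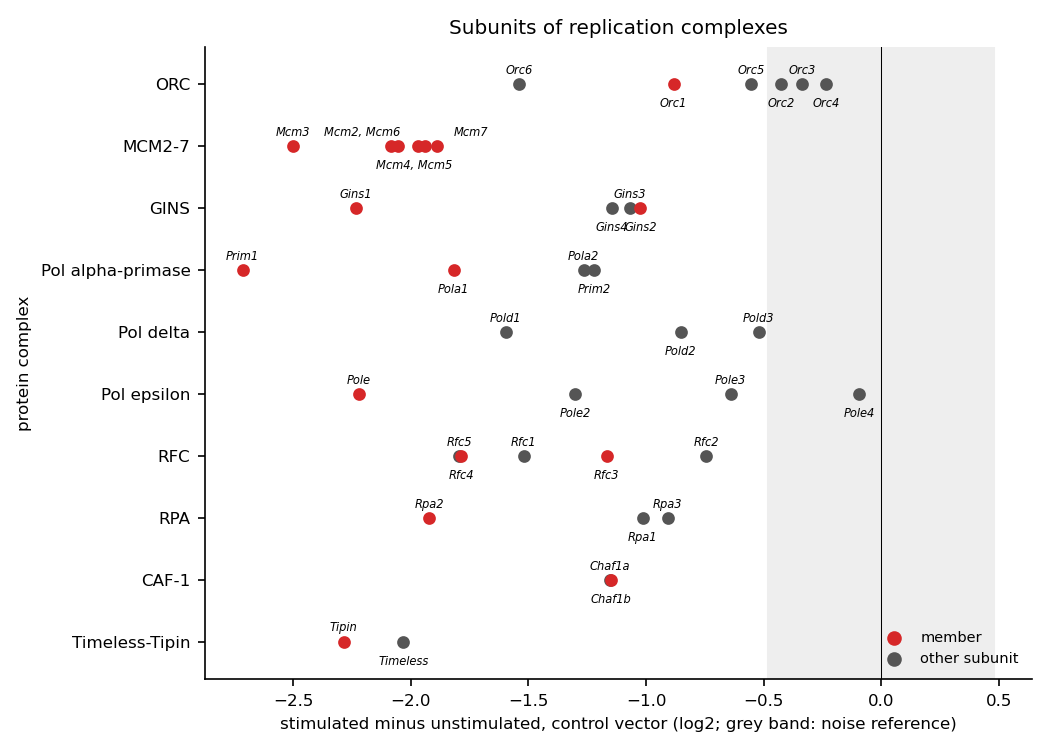
Stimulated minus unstimulated control array (log2; x axis) for each subunit of 10 replication complexes (y axis), members in red and other subunits in grey; the grey band is the noise reference of 0.48. The 6 MCM subunits lie within 0.61 of each other, whereas the polymerase epsilon subunits spread over 2.13.

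Relatives of the members (paralogues and related enzymes) that serve other tasks lay nearer 0. Of 10 such genes, 1 was at least 1.5-fold lower with stimulation in control cells and 1 higher. Those counts are near the shares of all genes, 15.2% and 12.4%. The median of the 10 was -0.22 (log2), against -1.89 for the members. The relatives were also dimmer, with a median level of 6.49 on the unstimulated control array against 8.57 for the members. The part of level in their smaller differences was not tested. Asf1a, the sister chaperone of Asf1b, was at -0.71. Tk2, the mitochondrial thymidine kinase, was higher at 0.74 where the cytosolic Tk1 was lower. The DNA ligases Lig3 and Lig4, which act mainly in repair, were at -0.25 and -0.27 beside -1.97 for Lig1. Uhrf2 was at -0.05, the recombination-linked MCM proteins Mcm8 and Mcm9 at -0.55 and -0.24, the mitochondrial polymerase Polg at -0.04 and the primase-polymerase Primpol at 0.27. Rrm2b, the p53-inducible small subunit of ribonucleotide reductase, was at -0.20 beside -2.49 for Rrm2.

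Other regulators of the G1/S transition, among them E2F and retinoblastoma family genes, were mostly lower. Of 31 measured genes in this list, 18 were at least 1.5-fold lower with stimulation in control cells and 2 higher, against 15.2% and 12.4% of all genes. The median of the list was -0.71 (log2). Ccna2, the S-phase cyclin A2, was at -2.82, E2f8, a repressor among the E2F factors, at -2.59, and Rbl1, the pocket protein p107, at -2.47. Ccnd1, cyclin D1, read 10.93, 8.50, 11.43 and 10.80 (-2.44). The genes past 1.5-fold upwards were Myc at 4.04 and Cdkn1b, which encodes the kinase inhibitor p27, at 1.05. Myc, a growth-promoting transcription factor, read 5.03, 9.07, 5.41 and 8.26 and so was high on both stimulated arrays, while 34 of the 35 replication and G1/S genes were lowest on the control one. Cdkn1b, named after its values were seen, read 7.34, 8.40, 7.18 and 7.60. Among the other kinase inhibitors of the list, Cdkn2d (-1.21) and Cdkn2c (-0.87) were past 1.5-fold downwards. Cdkn2b (-0.26), Cdkn1c (-0.24) and Cdkn2a (0.13) lay within the noise reference. Cdkn1a, also in the list, had no probe set tied to 1 symbol and was not read.

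Other marker lists moved on the same array. Of the 11 macrophage markers above the floor, 9 were at least 1.5-fold lower on the stimulated control array, against 15.2% of all genes. The median difference of the 11 was -3.34 (log2), or 10.2-fold. The log2 values of all 12 markers, with Mrc1 below the floor, summed to 85.2 there and 118 to 122 on the other 3 arrays. Their part in the differences of the replication genes was not tested. In the mitosis list all 28 measured genes were past 1.5-fold downwards, against 15.2% of all genes, and their median was -2.09 (log2). They include Kif11, a spindle motor, at -3.07 and Mki67, a proliferation marker, at -2.95.

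**Figure D3:**
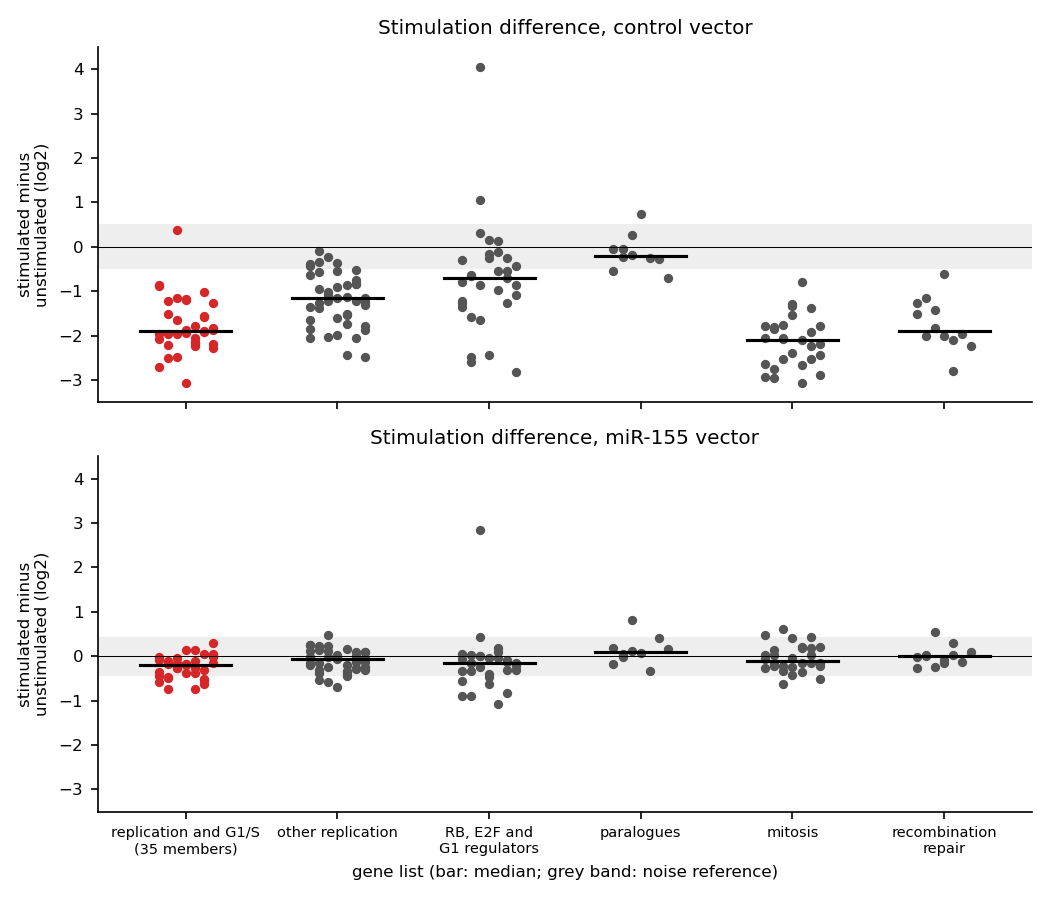
Stimulated minus unstimulated difference (log2; y axis) for each gene of 6 lists (x axis) in control-vector cells (top) and miR-155 cells (bottom); black bars are medians and grey bands the noise references of 0.48 and 0.41. In the top panel the medians of the members, mitosis and recombination repair lists lie near -2 and that of the relatives near 0; in the bottom panel all 6 medians lie inside the band.

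The same 72 h of cytokines left the set near its starting level in miR-155 cells. Between the 2 miR-155 arrays, 3 of the 35 genes were at least 1.5-fold lower and none higher, against 3.74% and 3.43% of all genes above the floor. The median was -0.19 (log2), with -0.03 over all genes, and 29 of the 35 differences were below 0, against 54.9% of all genes. No member was 2-fold lower, against 0.185% of all genes. The noise reference of 0.41 was exceeded by 9 genes, all of them lower, against 9.16% of all genes. In each of the 35 genes the difference was smaller in size than in control cells, as it was in 66.4% of all genes.

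The genes past 1.5-fold here were Tk1 (-0.74), E2f2 (-0.73) and Gins2 (-0.63); E2f1 fell just short of that threshold at -0.58. For Tk1 the call rests on the choice of probe set, since the second one gave -0.50. Ccne1 (-0.53), Mcm3 and Mcm7 (both -0.50), Pole (-0.48) and Mcm2 (-0.43) make up the rest of the 9 past the noise reference. In control cells E2f1 was at -0.85. Prim1, 6.56-fold lower in control cells, was at -0.02, and Asf1b, 8.39-fold lower there, at -0.38. The highest values were 0.29 for Pola1, 0.15 for Rfc3 and 0.13 for Rfc4, all within the noise reference.

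The 2 stimulation differences share no array and can be set side by side. Their Pearson correlation over the 35 genes was 0.06 and the Spearman correlation 0.09, given as a description of genes read on the same 4 arrays. The difference of the responses, miR-155 minus control cells, had a median of 1.65 (log2) over the members and -0.03 over all genes, and 31 of the 35 were at 1.5-fold or more in that direction, against 14.5% of all genes; none was in the other direction, against 13.9%. At 2-fold the count was 29, against 6.64%. Prim1 (2.70), Asf1b (2.69), Rrm2 (2.34) and Tipin (2.33) had the largest differences of the responses. The smallest were those of E2f1 (0.27), Gins2 (0.39) and E2f2 (0.49), and Cdt1 alone was below 0 (-0.43). All 4 of these lie within the noise reference of 0.64 for this measure.

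**Figure D4:**
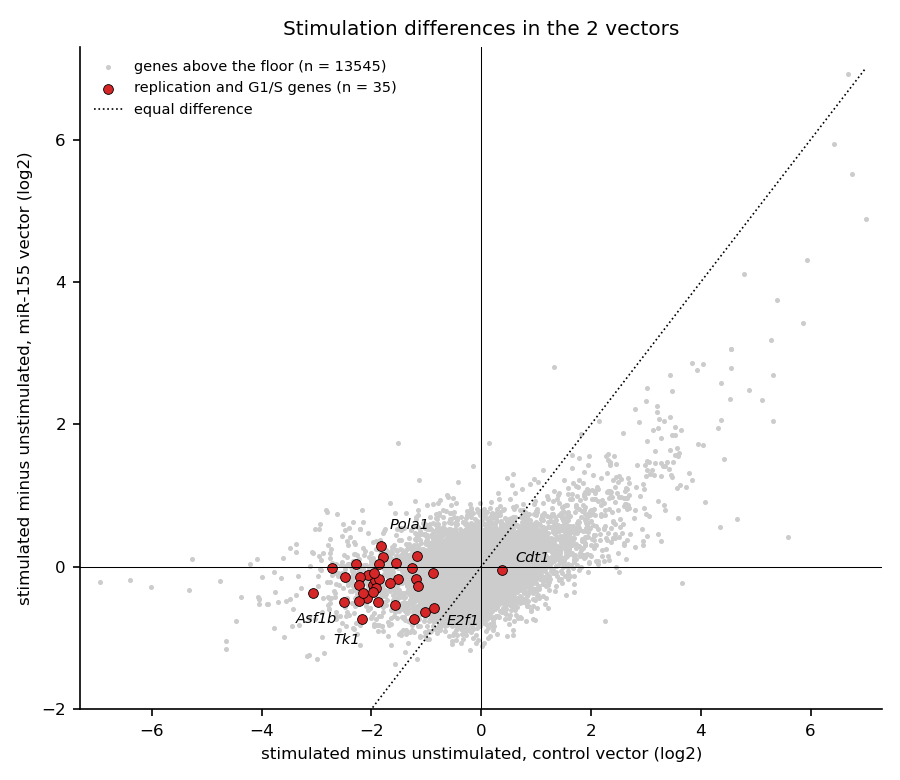
Stimulated minus unstimulated difference (log2) in control-vector cells (x axis) and miR-155 cells (y axis) for genes above the floor (grey) and the 35 replication and G1/S genes (red); the dotted line marks equal differences. The members lie between -3.07 and 0.39 on the x axis and between -0.74 and 0.29 on the y axis.

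Of the related lists, other replication genes had a median of -0.06 (log2) in miR-155 cells and mitosis genes -0.10, with 1 of 43 and 1 of 28 genes at least 1.5-fold lower; 1 mitosis gene, Cenpe, was that much higher (0.60), named after its value was seen. Of the 31 other regulators of the G1/S transition, 5 were at least 1.5-fold lower there, against 3.74% of all genes. They were E2f4 (-1.09), E2f8 (-0.89), E2f7 (-0.89), Ccnd3 (-0.82) and Ccnd1 (-0.63). Myc alone in that list was as much higher (2.85). Rrm2b was 0.82 higher with stimulation in miR-155 cells, against -0.14 for Rrm2. The Rrm2b difference rests on a low value of 4.60 on the unstimulated miR-155 array, not far above the floor. Macrophage markers had a median of -0.28 and none of the 11 was past 1.5-fold.

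Without stimulation the vectors differed little in this set, and mostly towards higher levels with miR-155. Of the 35 genes, 2 were at least 1.5-fold higher on the miR-155 array and none lower, against 1.18% and 3.15% of all genes above the floor. The median was 0.18 (log2), with a median of -0.00 over all genes, and 27 of the 35 differences were above 0, against 49.8% of all genes. The noise reference of 0.37 was exceeded by 7 genes, all of them higher, against 5.3% of all genes. None was 2-fold higher, against 0.0664% of all genes. The unstimulated miR-155 array enters here and, with the opposite sign, in the stimulation difference of miR-155 cells. E2f2, Mcm7, Ccne1 and Mcm3 were past the noise reference in both. The shifts of the members in these 2 comparisons are therefore not separate observations.

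E2f2 was the highest at 0.75, or 1.68-fold, and Tyms followed at 0.59, or 1.51-fold, just past the threshold. Mcm7 (0.55), Ccne1 (0.47), Tipin (0.45), Fen1 (0.41) and Mcm3 (0.39) were the others past the noise reference. The lowest member was Gins1 at -0.22. The unstimulated miR-155 array was the highest of the 4 for 21 of the 35 genes, against 25.8% of all genes. In the same comparison Rrm2b was lower by 2.20-fold (-1.14) and its relative Rrm2 was at -0.00. Rrm2b read 5.73 on the unstimulated and 5.54 on the stimulated control array. On the unstimulated and the stimulated miR-155 array it read 4.60 and 5.41. The low value of 4.60, not far above the floor, enters both this difference and the stimulation difference of Rrm2b in miR-155 cells. These differences are therefore not separate observations. The polymerase and primase members Pola1, Prim1 and Pole were at -0.02, -0.10 and -0.02.

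With stimulation the vectors differed widely. Of the 35 genes, 32 were at least 1.5-fold higher on the miR-155 array and none lower, against 12.4% and 13.6% of all genes, with a median of 1.84 (log2), or 3.58-fold. At 2-fold the count was 30 of 35, against 5.6%, and 33 of 35 exceeded the noise reference of 0.47 upwards, against 15.5%. The stimulated control array enters here as well as in the stimulation difference of control cells, so both rest on its low values. Asf1b was 7.60-fold higher (2.93), Tipin 6.87-fold (2.78), Prim1 6.06-fold (2.60), Mcm3 5.24-fold (2.39) and Rrm2 5.06-fold (2.34). The genes short of 1.5-fold were Gins2 (0.57), E2f1 (0.36) and Cdt1 (-0.18). Among the relatives, Asf1a was higher by 0.81 and Tk2 lower (-0.80), and the other 8 lay between -0.41 and 0.57.

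**Figure D5:**
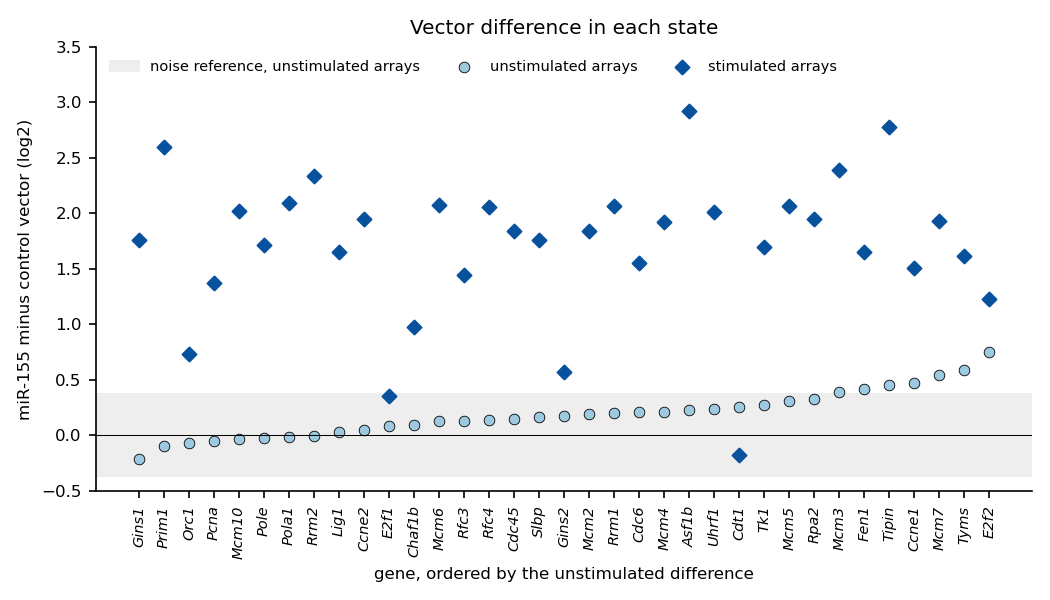
Difference between the miR-155 and the control vector (log2; y axis) for each of the 35 genes (x axis, ordered by the unstimulated difference); circles are the unstimulated arrays, diamonds the stimulated arrays, and the grey band is the noise reference of 0.37 of the unstimulated arrays. The circles run from -0.22 to 0.75 and the diamonds from -0.18 to 2.93.

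The stimulated miR-155 array can also be set against the unstimulated control array, which differ in both vector and treatment. None of the 35 genes was past 1.5-fold in either direction, against 4.74% of all genes lower and 2.83% higher. The median was -0.05 (log2) and the range -0.50 to 0.50. Pole (-0.50), E2f1 (-0.50), Gins1 (-0.47), Tk1 (-0.46) and Gins2 (-0.45) were past the noise reference of 0.42 downwards, against 10.5% of all genes, and Tipin (0.50) and Tyms (0.42) upwards, against 5.85%. On these 2 arrays 12 of 14 osteoclast markers differed by at least 1.5-fold, all higher after stimulation, such as Acp5, the tartrate-resistant acid phosphatase, at 6.54 and 12.10. Over the 3 arrays other than the stimulated control one, the range of a member had a median of 0.31, from 0.08 for Ccne2 to 0.75 for E2f2.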

How the data were processed

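RNA was hybridised to Affymetrix Mouse Gene 1.0 ST arrays after labelling of 100 ng total RNA, per the labels' protocols. Each array has 1 deposited log2 value for every probe set. RMA, which corrects background, equalises the distributions of the arrays and summarises probes, was used with Partek software, per the submitters' processing notes. Neither a software version nor a build is given in the sources used here. Equalised distributions hide changes in total RNA per cell. Arrays have no read depth.

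Groups follow the sample descriptions. The annotation gave 1 symbol to 21789 of 35557 probe sets. Differences of log2 values were taken between arrays and counted at 1.5-fold, with 2-fold as an alternative, beside the same counts over 13545 genes whose highest value passed the floor. No test was run: with 1 array a group, an additive model would take the difference of the responses, itself a comparison here, as its error. The calculation was tested on simulated data. Python 3.11.15, numpy 2.4.6, pandas 2.3.3 and matplotlib 3.10.9 were used.

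The members and lists were chosen with earlier results of these data known. All members are named; from other lists, up to 4 genes with the largest differences in control cells or between stimulated arrays, and every relative. The grouping into complexes, with its subunits, and the comparison of the stimulated miR-155 with the unstimulated control array were added after values were seen. So were Cdkn1b and the other kinase inhibitors, Cenpe, E2f4, E2f7, Ccnd3 and Mrc1.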

Additional observations from a re-analysis of the deposited data

How the results depend on the processing

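All member counts at 1.5-fold stayed the same under quantile normalization repeated over the 4 arrays, arrays centred on their medians, and the mean of all probe sets per gene, which changes only Pcna, Tk1 and Slbp. These settings changed 438 of 630 single-member differences, each by less than the noise reference of its comparison, and none past 1.5-fold changed sign. The settings without a floor, with a floor raised by 1 (log2) and with values below the floor set to it could not change a member, since all 35 lie above the floor on every array and reach above the raised one, and they say nothing about stability. At 2-fold in place of 1.5-fold, the count of lower members with stimulation in miR-155 cells went from 3 to 0 and the count of higher members with miR-155 before stimulation from 2 to 0. With the bases before the gene start alone, 8 of 29 members held E2F letters in place of 12, and 2.16% of all genes in place of 2.60%.

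No paired analysis was possible because each group has 1 array and no replicate numbers are shared. For the same reason leaving out a replicate was not run. The low values of the set rest on the stimulated control array, for which culture, array and treatment cannot be told apart. Probe sets near the floor, such as that of Ccne2 on that array, understate differences.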

Other observations

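Genes of repair by homologous recombination, a process tied to S phase and G2, had lower values on the stimulated control array too. All 12 measured genes above the floor were at least 1.5-fold lower than on the unstimulated control array, against 15.2% of all genes. Their median was -1.90 (log2), and the median in miR-155 cells was -0.00. Chek1, the checkpoint kinase that guards stalled forks, read 7.77 on the unstimulated control array, 4.99 on the stimulated control array, 7.93 on the unstimulated miR-155 array and 8.23 on the stimulated miR-155 array. Its difference between the stimulated arrays, 3.25, was larger than that of any of the 35 replication and G1/S genes. Blm, a helicase that resolves recombination intermediates, was at -2.23 with stimulation in control cells and at 0.11 in miR-155 cells, and Rad54l, a recombination motor protein, at -2.10 and 0.03.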
